A study of Mus musculus with 20 samples.

Results

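Livers of mice on regular chow were compared between treatment with anti-ACBP, which targets acyl-CoA binding protein (ACBP, also called DBI), and treatment with control IgG. The members are all genes of the chow table with a mean of at least 13 normalized counts over its libraries, 14616 of the 54325 genes listed (26.9%). At that minimum the gene A730032A03Rik, with a mean of 12.99, lay just outside and Smim24, with 13.003, just inside. The genes were chosen by their mean level over both groups and not by a test of the antibody. A gene near the minimum can therefore be a member through its level in either group alone. Of the genes named below, Ryr1 and Moxd1 were members through IgG, and Slc22a27 and Cyp2a4 through anti-ACBP. The study sequenced liver mRNA under 2 diets, each with both antibodies, and per the labels every one of the 4 groups had 5 samples. All mice were C57BL/6, labelled healthy on chow and NASH (non-alcoholic steatohepatitis) on the other diet. The groups were chow with anti-ACBP/DBI, chow with IgG, a methionine- and choline-deficient diet (MCD) with anti-ACBP/DBI, and MCD with IgG. The labels used here give no sex, age, antibody dose or sampling time.

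ACBP binds long-chain fatty acyl-CoA esters inside cells and carries them between enzymes. It is also released from cells and acts on other cells as a signal that favours feeding and fat storage, and the antibody is directed against this extracellular protein. The liver answers inflammation, feeding state, growth hormone and the time of day with large changes in the mRNAs of secreted proteins and metabolic enzymes, and these programmes give the order of the results.

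Group means, log2 fold changes (anti-ACBP over IgG) and their standard errors (SE) are those of the authors' deposited table throughout, and ± marks an SE. A mean normalized count is a read count divided by the library's size factor and averaged over a group. Levels given with a group's name are such means, and "rose by" or "fell by" gives the size of the log2 fold change. The tables' group means come without single libraries, so no SD over samples is given. Genes seen in a single read show 4 libraries behind each chow mean, while the labels list 5 samples, with size factors from 0.905 to 1.11. Adjusted p-values below 0.001 were computed again as fold change over SE, and a gene called higher or lower has an adjusted p under 0.05 (Wald test of DESeq2, Benjamini-Hochberg). Nothing in the labels says that the samples of a group came from separate animals, so these p-values measure the spread between samples only. All 17 hepatocyte markers on the list were members, 11 of them with a negative fold change, and 1 was higher and 3 lower (2 and 1 with equal column totals). Alb, albumin, had 2329410.0 under anti-ACBP and 1971740.0 under IgG and was not called. Dbi, the gene of the antibody's target, had 24526 with anti-ACBP and 24312 with IgG, a log2 fold change of 0.01 ± 0.087 that did not pass the test (adjusted p = 0.952).

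Markers of skeletal muscle had a summed level of 102.8 normalized counts with anti-ACBP and 1237 with IgG over 7 of the 8 muscle markers. Only Mb, the oxygen carrier of muscle, was tested among these 7, and it was not called. For 27 members the deposited adjusted p stood at the upper end of its range. It was read here as missing, and these members were left untested. Among them were the muscle genes Acta1 and Ckm. Acta1 had 14.1 normalized counts with anti-ACBP and 236 with IgG (-4.07 ± 1.77), and Ckm 12.2 with anti-ACBP and 269.5 with IgG (-4.47 ± 1.64). Dmbt1, a secreted scavenger protein of mucosal epithelium, was in the same set with 0.61 with anti-ACBP and 1073 with IgG. Its log2 fold change stood at -5, where the deposited fold changes end, with an SE of 3.02. The immediate early gene Nr4a1, an orphan nuclear receptor, was untested too, with 1007 with anti-ACBP and 110.0 with IgG (3.19 ± 1.15). These 4 genes were chosen after their values were seen. Their SEs are large, and whether single libraries carry these means cannot be seen. Of the called members, Ryr1, the calcium release channel of skeletal muscle, was lower, with 1.86 under anti-ACBP and 24.3 under IgG (-3.81 ± 1.05, adjusted p = 0.00494). The part of muscle RNA in other results was not tested. In bulk liver fewer cells of a type and less RNA per cell cannot be told apart, here and in all results below.

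Among the chow livers, called genes for acute phase proteins, major urinary proteins and the unfolded protein and integrated stress response were mostly lower with anti-ACBP. Called genes of fatty acid oxidation, flavin monooxygenases and female-biased genes were mostly higher, and the counts follow for each group. Of 14589 members with an adjusted p, 1760 changed (12.1%), with 816 higher (5.59%) and 944 lower (6.47%). The median size of a called log2 fold change was 0.53, and 834 of the calls were under 0.5. A change of at least 1 on the log2 scale was seen for 303 genes, 106 of them higher and 197 lower. Calls were more frequent at high levels, with 3.9% of genes at means from 13 to 50 and 29.6% of those at 5000 or more, where the median SE was 0.409 and 0.092. Protein-coding genes changed in 1614 of 12835 cases (12.6%) and long non-coding RNAs in 82 of 1042 (7.9%).

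**Figure D1:**
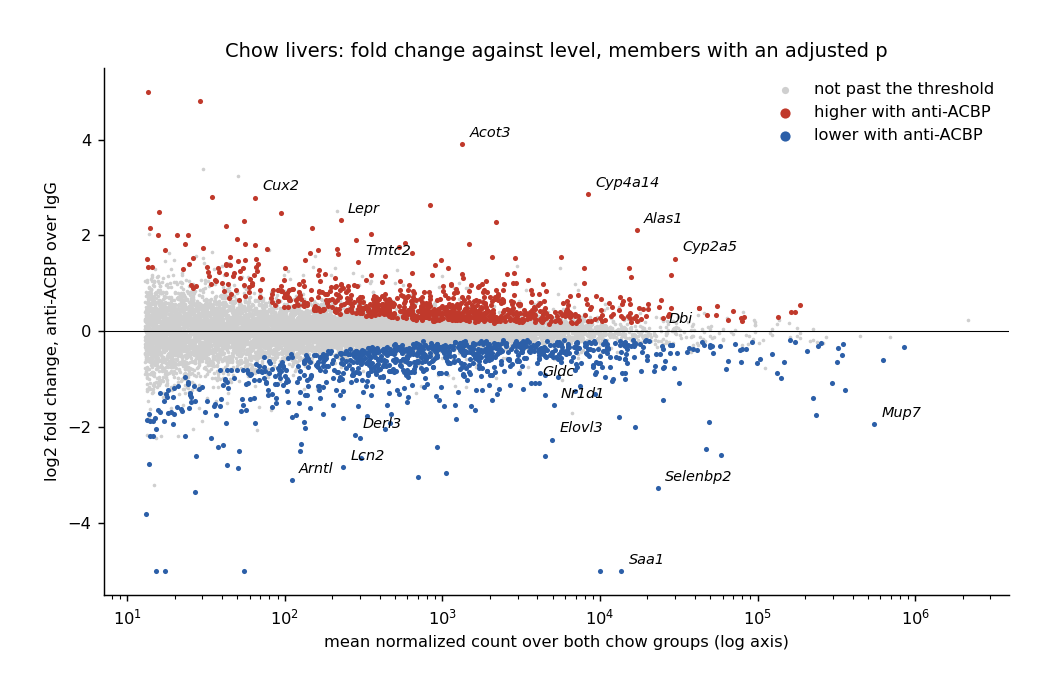
Log2 fold change of anti-ACBP over IgG against the mean normalized count over both chow groups (log axis), 1 point for each of the 14589 members with an adjusted p. Red points are the 816 genes called higher and blue points the 944 called lower; the column ends at -5 and 5, and the calls reach smaller fold changes at higher levels.

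The direction of the calls depended on the scaling. The column of group means summed to 35093280 normalized counts with anti-ACBP and 38600264 with IgG. The summed fall of the major urinary proteins equalled 59.4% of that net difference, that of acute phase genes 17.6% and that of mitochondrially encoded respiratory chain genes 13%. Other lists were not set against it. Some genes, such as Alb, had higher means with anti-ACBP, so these percentages are not parts of a whole. When both totals were made equal, every log2 fold change moved up by 0.14, and 3137 genes passed, 2605 higher and 532 lower. The share of higher calls was then 83.0%, against 46.4% with the authors' size factors and 65.3% with totals made equal without the 20 most abundant genes. Counts with equal totals are therefore given, higher first unless stated, beside lists whose direction turned or whose counts moved by over 1.5 times. The lists below are described by how many of their tested members passed in each direction, to be read against the 5.59% and 6.47% of all members. These 5.59% and 6.47% do not take a list's level into account. In both directions together 3.9% of members passed at means from 13 to 50 and 29.6% at 5000 or more. Shares of lists of abundant genes were not compared with members of like level. No test was run on a list, and several genes stand on more than 1 list. List members named as not past the threshold, and some of those past it, were chosen after their values were seen.

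**Figure D2:**
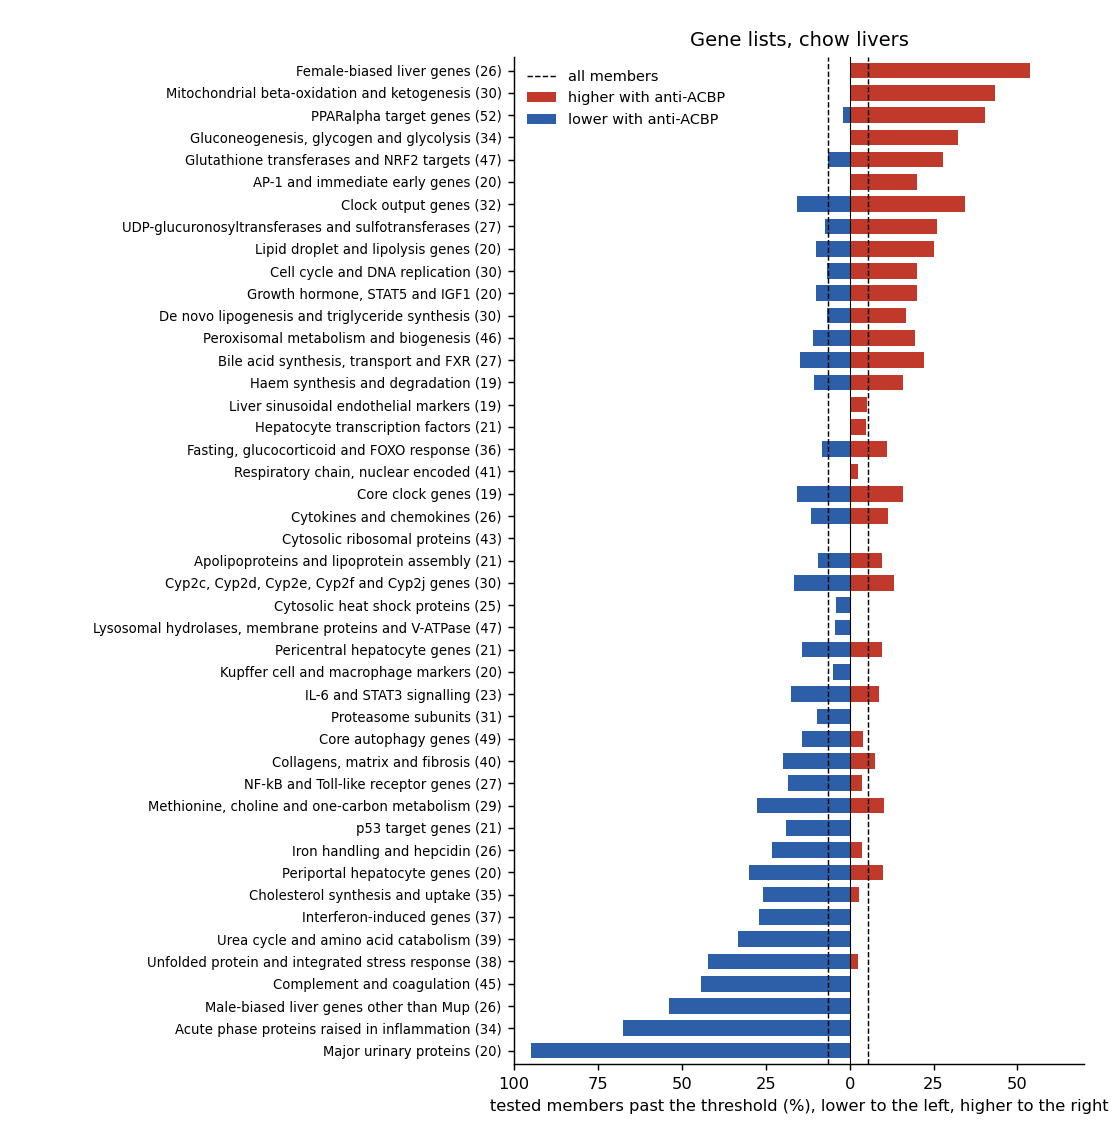
Share of tested members that were higher (red, to the right) or lower (blue, to the left) with anti-ACBP, for the 45 gene lists with at least 19 tested members. The number tested is in brackets and dashed lines mark the shares over all members, 5.59% higher and 6.47% lower; major urinary proteins reach 95% lower and female-biased genes 53.8% higher.

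Acute phase genes, which the liver transcribes in response to interleukins and secretes as plasma proteins, were lower in most cases. Of 34 members 23 were lower and 0 higher (67.6% lower; 2 higher and 21 lower with equal column totals), with a median log2 fold change of -0.59. The serum amyloid A genes stood lowest. Saa1 had 755 under anti-ACBP and 26601 under IgG and Saa2 had 248 under anti-ACBP and 19696 under IgG normalized counts, both at the end of the fold change column, so that their recomputed p-values (1.84e-22 and 8.01e-10) rest on that end value. These paralogs are near-identical, and reads may have been split between them. The related Saa3 had 152 under anti-ACBP and 517 under IgG (-1.77 ± 0.58, adjusted p = 0.0252) and the constitutive Saa4 6684 under anti-ACBP and 12068 under IgG (-0.85 ± 0.14, adjusted p = 1.10e-07). Orm2 and Orm3, orosomucoids that bind drugs and lipids in plasma, had log2 fold changes of -3.04 ± 0.45 and -1.69 ± 0.36. Lcn2, a siderophore-binding protein, had 57.8 under anti-ACBP and 410.4 under IgG (-2.83 ± 0.33, adjusted p = 5.42e-15).

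The abundant acute phase transcripts had smaller log2 fold changes. Hp, haptoglobin, which binds free haemoglobin, had 94698 under anti-ACBP and 185359 under IgG (-0.97 ± 0.16, adjusted p = 7.58e-08). The fibrinogen chains, the substrate of clotting, moved side by side, with -0.65 ± 0.11 for Fga, -0.48 ± 0.095 for Fgb and -0.65 ± 0.090 for Fgg in the authors' deposited table. Lrg1, a leucine-rich plasma glycoprotein, had 9590.5 under anti-ACBP and 19204 under IgG (-1.0 ± 0.11, adjusted p = 8.88e-16), and the pentraxin Apcs 2145 under anti-ACBP and 3945 under IgG (-0.88 ± 0.13, adjusted p = 3.71e-09). The inter-alpha-trypsin inhibitor chains Itih3 and Itih4 had -0.76 ± 0.12 and -0.62 ± 0.12, and the protease inhibitor Serpina3n -0.75 ± 0.095. The 11 members that did not pass included Crp at -0.16 ± 0.11, the central complement factor C3 at -0.19 ± 0.14 and hepcidin, Hamp, at 0.20 ± 0.44. Ceruloplasmin, Cp, at -0.36 ± 0.093, passed here and not with equal column totals. Among 9 negative acute phase genes, which inflammation lowers, 2 rose and 0 fell (4 and 0 with equal column totals), namely the hormone carriers Serpina7 (1.10 ± 0.21, adjusted p = 9.69e-06) and Serpina6 (1.0 ± 0.19, adjusted p = 9.14e-06). Albumin, Alb, at 0.24 ± 0.11, and transthyretin, Ttr, at 0.04 ± 0.072, did not pass.

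**Figure D3:**
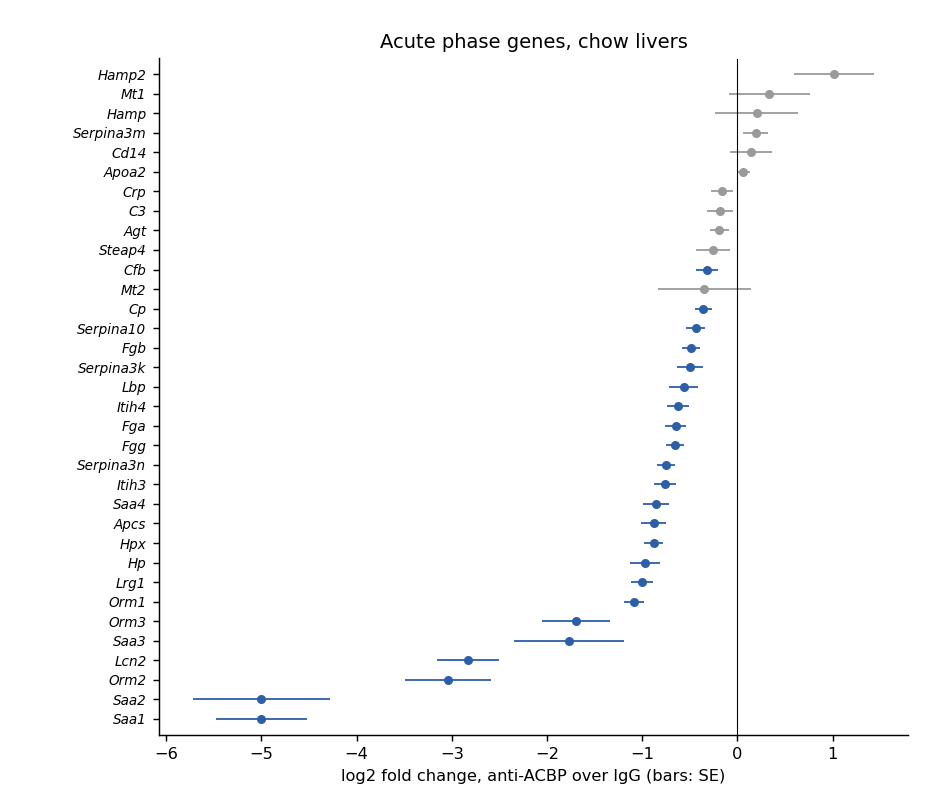
Log2 fold change of anti-ACBP over IgG (x axis) with its SE (bars) for the 34 acute phase members, in chow livers. Blue points are the 23 called lower and grey points the 11 not past the threshold; Saa1 and Saa2 lie at the lower end of the deposited column, -5.

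Acute phase promoters are a textbook site of the factors C/EBP and STAT, and promoters of the 3 genes with the lowest fold changes are shown as examples. The sequences are from RefSeq (GRCm38.p6), from 250 bases before to 50 after the start, on the gene's strand, with matches of the C/EBP motif TTGCNNAA in capitals. They lie at chr7:46742931-46743230 on the minus strand for Saa1, chr7:46751583-46751882 on the plus strand for Saa2 and chr4:63362199-63362498 on the plus strand for Orm2. The motif was searched on both strands.
Saa1: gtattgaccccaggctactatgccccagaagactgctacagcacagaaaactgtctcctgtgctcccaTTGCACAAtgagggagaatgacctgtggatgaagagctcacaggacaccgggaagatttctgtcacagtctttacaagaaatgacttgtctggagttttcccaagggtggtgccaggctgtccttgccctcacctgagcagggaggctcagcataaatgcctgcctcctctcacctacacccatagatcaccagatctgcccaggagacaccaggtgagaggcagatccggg
Saa2: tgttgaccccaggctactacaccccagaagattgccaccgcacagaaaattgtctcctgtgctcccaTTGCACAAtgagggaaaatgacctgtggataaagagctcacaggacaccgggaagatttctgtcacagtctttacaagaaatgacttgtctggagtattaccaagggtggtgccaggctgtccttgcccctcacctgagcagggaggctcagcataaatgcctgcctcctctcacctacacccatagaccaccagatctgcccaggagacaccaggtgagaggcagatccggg
Orm2: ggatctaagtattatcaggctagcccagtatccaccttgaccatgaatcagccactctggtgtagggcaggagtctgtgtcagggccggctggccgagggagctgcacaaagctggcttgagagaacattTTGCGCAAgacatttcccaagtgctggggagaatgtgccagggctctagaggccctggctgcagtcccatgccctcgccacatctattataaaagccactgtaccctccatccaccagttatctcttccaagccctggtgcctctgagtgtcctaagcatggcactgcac
The Saa1 and Saa2 windows were 96.0% identical over 299 aligned bases, and both carry the same match. A match occurred in 11 of the 17 lower acute phase genes with a promoter in the table, in 4 of 9 that did not pass and in 10.8% of all 32851 promoters. A STAT motif, TTCNNNGAA, occurred in 4 of 17, 4 of 9 and 8.30%. A match describes the letters of the window only.

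Interleukin-6 reaches the acute phase genes through its receptor and STAT3. Of 23 members of this pathway 2 were higher and 4 lower. The receptor genes Il6ra and Il6st had 0.12 ± 0.22 and 0.06 ± 0.090, the transcription factor Stat3 -0.39 ± 0.17 and its feedback inhibitor Socs3 -0.54 ± 0.77, none past the threshold. The lower ones were the secreted protein Fgl1, with 5301 under anti-ACBP and 13220.3 under IgG (-1.32 ± 0.13, adjusted p = 3.59e-22), the repressor Nfil3 (-1.16 ± 0.26), the kinase Pim1 (-0.87 ± 0.21) and the NF-kB cofactor Bcl3 (-0.67 ± 0.16). The leptin receptor Lepr, which signals through STAT3, was higher, with 378 under anti-ACBP and 75.8 under IgG (2.33 ± 0.30, adjusted p = 9.40e-12).

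Among 27 genes of NF-kB and Toll-like receptor signalling 1 was higher and 5 lower, against 2 and 2 with equal column totals, so that the excess of lower calls depended on the scaling. Tnip1, an inhibitor of NF-kB signalling, fell by 0.80 (SE 0.15), adjusted p = 1.04e-05, and Birc3, an inhibitor of apoptosis, rose by 0.55 (SE 0.15). Cytokines and chemokines passed for 3 higher and 3 lower of 26, and for 3 and 1 with equal column totals. Il15, a growth factor of lymphocytes, had 45.9 under anti-ACBP and 18.3 under IgG (1.34 ± 0.31, adjusted p = 0.000601), and the chemokine Cxcl12 and the cytokine Mif rose by 0.45 (SE 0.11) and 0.48 (SE 0.11). Ccl9, a myeloid chemokine, fell by 0.48 (SE 0.12).

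Interferon-induced genes were lower in 10 of 37 cases and higher in 0 (27.0% lower), with a median of -0.34. The guanylate-binding protein Gbp10 had 127 under anti-ACBP and 320.1 under IgG (-1.34 ± 0.27, adjusted p = 2.95e-05) and the immunity-related GTPase Ifi47 224 under anti-ACBP and 491 under IgG (-1.13 ± 0.26, adjusted p = 0.000447). Rsad2, which makes an antiviral nucleotide, had -1.05 ± 0.20 and the ubiquitin-like Isg15 -0.63 ± 0.18. The regulator Irf7, at -0.12 ± 0.082, did not pass.

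Complement and coagulation genes, most of them made by hepatocytes, were lower in 20 of 45 cases and higher in 0, with a median of -0.25. With equal column totals 13 stayed past the threshold as lower and 0 were higher. C4b, a component of the classical pathway, had 45939 under anti-ACBP and 79256 under IgG (-0.79 ± 0.063, adjusted p = 1.49e-32), and reads may have been split with its near-identical copy C4a (-0.80 ± 0.47, not called). Genes of the membrane attack complex were lower, with C9 at -0.84 ± 0.11, C8b at -0.74 ± 0.12, C8a at -0.46 ± 0.10 and C6 at -0.66 ± 0.19. Cpb2, an inhibitor of clot lysis, had 7323 under anti-ACBP and 11449 under IgG (-0.64 ± 0.077, adjusted p = 4.64e-14) and the clotting factor F11 1771 under anti-ACBP and 3146 under IgG (-0.83 ± 0.15, adjusted p = 1.81e-06). The plasmin inhibitor Serpinf2 fell by 0.72 (SE 0.13). Cfd, which adipocytes secrete, had 7.64 under anti-ACBP and 46.7 under IgG (-2.60 ± 0.77, adjusted p = 0.0109), and Fabp4, another adipocyte marker, was at -0.04 ± 0.24.

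Secreted proteins pass through the folding machinery of the endoplasmic reticulum. Of 38 genes of the unfolded protein and integrated stress response 16 were lower (42.1%) and 1 higher (13 lower and 3 higher with equal column totals), with a median of -0.28. Derl3, which takes part in degrading misfolded proteins, had 102 under anti-ACBP and 456 under IgG (-2.17 ± 0.36, adjusted p = 2.38e-07), and the chaperone partner Sdf2l1 517 under anti-ACBP and 1533 under IgG (-1.57 ± 0.21, adjusted p = 1.83e-11). The ubiquitin ligase Syvn1 had -0.95 ± 0.24 and the folding factor Creld2 -0.92 ± 0.26. Calr, a lectin chaperone, had 19014 under anti-ACBP and 32085 under IgG (-0.75 ± 0.11, adjusted p = 4.90e-09) and Pdia6, a disulfide isomerase, 6753 under anti-ACBP and 11306 under IgG (-0.74 ± 0.12, adjusted p = 4.53e-08). Hspa5, the main chaperone of the compartment, had 20485 under anti-ACBP and 31421 under IgG (-0.62 ± 0.16, adjusted p = 0.00202).

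Among members that did not pass, the sensors Ern1 and Atf6 had 0.06 ± 0.14 and 0.09 ± 0.097, the factor Xbp1 -0.21 ± 0.20, Atf4 0.20 ± 0.13 and Ddit3 -0.13 ± 0.16 in the authors' deposited table. The member that rose was Atf3, a stress-induced factor, with 100.3 under anti-ACBP and 28.7 under IgG (1.8 ± 0.57, adjusted p = 0.0202). Trib3, a target of ATF4, fell by 0.62 (SE 0.22). Of 25 cytosolic heat shock genes 1, Hspb8, was lower (-0.46 ± 0.12) and 0 were higher, against 4 higher and 1 lower with equal column totals, so that the direction turned with the scaling. Hspa1a stood at -0.66 ± 0.36.

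Genes that male and female mouse livers express at different levels, under the pattern of growth hormone release, are given next. Major urinary proteins, pheromone carriers secreted mainly by male liver, were lower in 19 of 20 cases, with a median of -1.41. Their summed level was 1814639.7 normalized counts with anti-ACBP and 3896927 with IgG. Mup7 had 227539 under anti-ACBP and 874356 under IgG (-1.94 ± 0.50, adjusted p = 0.00205), Mup9 had 6738 under anti-ACBP and 26721 under IgG (-1.99 ± 0.25, adjusted p = 2.32e-12) and Mup22 had 495612 under anti-ACBP and 756282 under IgG (-0.61 ± 0.15, adjusted p = 0.00113). Copies of this family are near-identical, and how reads were divided among them cannot be seen in the table. Mup6 did not pass, at -0.36 ± 0.65.

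Among 26 other male-biased genes 14 were lower (53.8%) and 0 higher, with a median of -0.61. Moxd1, a copper-dependent monooxygenase, had 0.99 under anti-ACBP and 109.6 under IgG normalized counts, at the end of the column, and Selenbp2, a selenium-binding protein, 4341 under anti-ACBP and 42074 under IgG (-3.28 ± 0.64, adjusted p = 2.14e-05). Elovl3, an elongase of very long fatty acids, had 1719 under anti-ACBP and 8238 under IgG (-2.26 ± 0.26, adjusted p = 6.69e-15). The carboxylesterase Ces4a had -2.01 ± 0.31, the ferritin receptor Scara5 -2.65 ± 0.63 and the alpha-1-antitrypsin paralog Serpina1e -1.08 ± 0.22. Some male-biased genes did not pass, among them Cyp2d9 at -0.11 ± 0.13, Slco1a1 at -0.06 ± 0.12 and Hsd3b5 at -0.48 ± 0.25.

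Of 26 female-biased members 14 were higher (53.8%) and 0 lower, with a median of 0.54, and 11 further genes of that list lay under the minimum of 13. Cux2, a female-specific repressor, had 113 under anti-ACBP and 16.9 under IgG (2.79 ± 0.56, adjusted p = 3.66e-05) and the steroid hydroxylase Cyp2a4 60.2 under anti-ACBP and 8.67 under IgG (2.79 ± 0.67, adjusted p = 0.000793). Cyp2a5 of the same family, given below, rose too and had far higher levels in both groups. How reads were divided between Cyp2a4 and Cyp2a5 cannot be seen here. The organic anion transporter Slc22a27 had 22.9 under anti-ACBP and 5.12 under IgG (2.16 ± 0.58) and the monocarboxylate transporter Slc16a5 329 under anti-ACBP and 108 under IgG (1.61 ± 0.34, adjusted p = 0.000125). Slc22a26 and Cyp17a1 rose by 1.34 (SE 0.45) and 0.72 (SE 0.21). The female-biased Cyp2c69 at -0.82 ± 0.46, Cyp2c40 at -0.70 ± 0.52 and Prlr, the prolactin receptor, at 0.24 ± 0.26 did not pass.

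**Figure D4:**
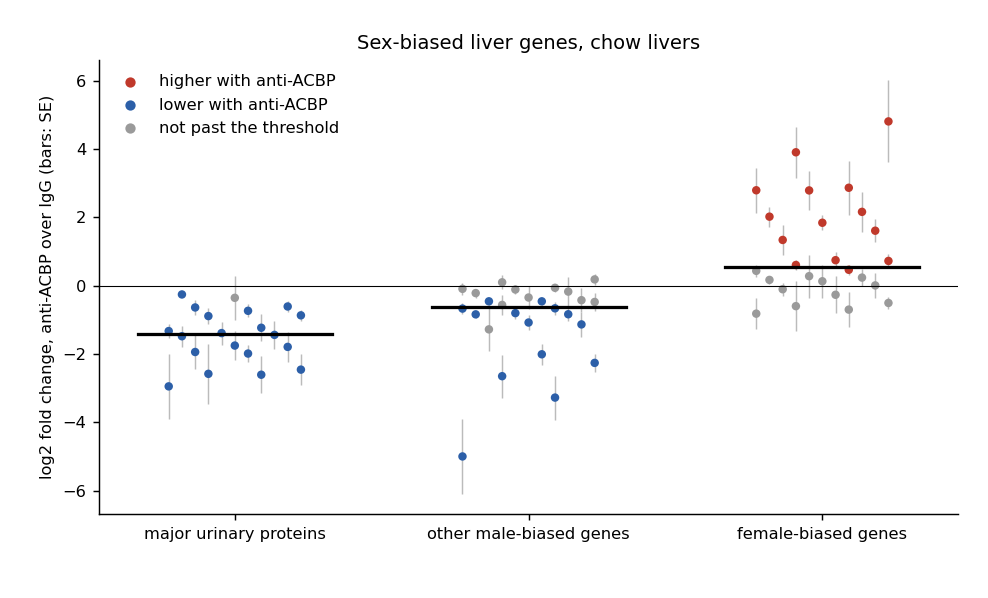
Log2 fold change of anti-ACBP over IgG (y axis, bars: SE) for 20 major urinary protein genes, 26 other male-biased and 26 female-biased genes in chow livers. Each point is a gene (blue lower, red higher, grey not past the threshold) and black lines are the medians, -1.41, -0.61 and 0.54.

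The growth hormone pathway itself showed 4 higher and 2 lower of 20 (5 and 1 with equal column totals). Stat5b, the factor through which growth hormone sets male expression, had 1670.0 under anti-ACBP and 2336 under IgG (-0.48 ± 0.081, adjusted p = 2.38e-07). The receptor Ghr at -0.18 ± 0.084, the feedback inhibitors Socs2 at 0.76 ± 0.67 and Cish at 0.52 ± 0.92, and the male-biased repressor Bcl6 at -0.97 ± 0.53 did not pass. Igf1, the growth factor induced by growth hormone, was lower at -0.32 ± 0.10, a call that ended with equal column totals, and its binding protein Igfbp2 rose by 0.63 (SE 0.20).

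In the circadian clock CLOCK and BMAL1 (gene Arntl) activate the Per and Cry genes, whose proteins inhibit them, and REV-ERB (Nr1d1) and ROR proteins repress and activate Arntl. Of 19 core members 3 were higher and 3 lower, and 5 and 3 with equal column totals. Arntl had 23.2 under anti-ACBP and 199 under IgG (-3.10 ± 0.41, adjusted p = 9.40e-12) and Clock 523 under anti-ACBP and 1022 under IgG (-0.97 ± 0.098, adjusted p = 8.25e-20). The repressor Nr1d1 was lower too, with 2599 under anti-ACBP and 7572 under IgG (-1.54 ± 0.13, adjusted p = 1.73e-30). Per1 had 3731 under anti-ACBP and 1869 under IgG (1.0 ± 0.13, adjusted p = 1.72e-12) and Per2 2234 under anti-ACBP and 1167 under IgG (0.94 ± 0.25, adjusted p = 0.00385).

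Other core genes did not pass, with Per3 at 1.0 ± 0.41, Ciart at 0.93 ± 0.58, Cry1 at 0.18 ± 0.19, Nr1d2 at 0.19 ± 0.14 and Rora at 0.02 ± 0.089 in the authors' deposited table. Bhlhe41 stood at -0.74 ± 0.59. The labels used here give no sampling time, so a difference in time of day between the groups cannot be told apart from the antibody. Promoters of the 2 called genes whose windows held a match of their textbook element are shown, a ROR element in Arntl (chr7:113207261-113207560, plus strand) and an E-box, CACGTG, in Per1 (chr11:69098699-69098998, plus strand), both from RefSeq (GRCm38.p6) with the match in capitals.
Arntl: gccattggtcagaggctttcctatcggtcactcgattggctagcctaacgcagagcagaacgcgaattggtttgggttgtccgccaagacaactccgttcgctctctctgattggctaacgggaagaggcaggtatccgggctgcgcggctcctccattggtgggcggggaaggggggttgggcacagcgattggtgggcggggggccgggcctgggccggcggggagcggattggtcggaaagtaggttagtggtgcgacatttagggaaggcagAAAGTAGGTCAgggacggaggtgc
Per1: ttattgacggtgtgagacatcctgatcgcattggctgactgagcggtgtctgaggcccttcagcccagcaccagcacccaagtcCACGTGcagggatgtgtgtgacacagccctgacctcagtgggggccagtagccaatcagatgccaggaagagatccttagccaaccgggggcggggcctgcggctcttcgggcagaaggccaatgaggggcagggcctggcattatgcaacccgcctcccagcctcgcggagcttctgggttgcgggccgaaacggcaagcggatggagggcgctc
Both motifs were searched on both strands and occurred in 0.384% and 7.15% of all promoters. Of the core genes that did not pass, 3 of 10 with a promoter held an E-box and 0 a ROR element.

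Among 32 clock output genes, which follow the core loop, 11 were higher (34.4%) and 5 lower (15.6%), with a median of 0.47. Those that rose included Nampt, the NAD-producing enzyme, with 4001 under anti-ACBP and 1732 under IgG (1.21 ± 0.15, adjusted p = 3.13e-13), and the deadenylase Noct with 3564 under anti-ACBP and 1568 under IgG (1.18 ± 0.23, adjusted p = 1.25e-05). The kinase Wee1 had 823 under anti-ACBP and 245 under IgG (1.75 ± 0.55, adjusted p = 0.019) and the deubiquitinase Usp2 3085 under anti-ACBP and 1048 under IgG (1.56 ± 0.56, adjusted p = 0.0463). The lipid transporter Mfsd2a had 2.28 ± 0.38 and Coq10b, a coenzyme Q binding protein, 0.82 ± 0.15. Leo1, a subunit of the Paf1 transcription complex, had 236 under anti-ACBP and 442 under IgG (-0.91 ± 0.12, adjusted p = 1.22e-11), and the retinal reductase Dhrs3 fell by 0.57 (SE 0.082). The output regulators Dbp at 0.47 ± 0.40, Tef at 0.30 ± 0.17 and Hlf at 0.30 ± 0.15 did not pass, nor did Cyp7a1, the rate-limiting enzyme of bile acid synthesis, at 1.36 ± 0.73.

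**Figure D5:**
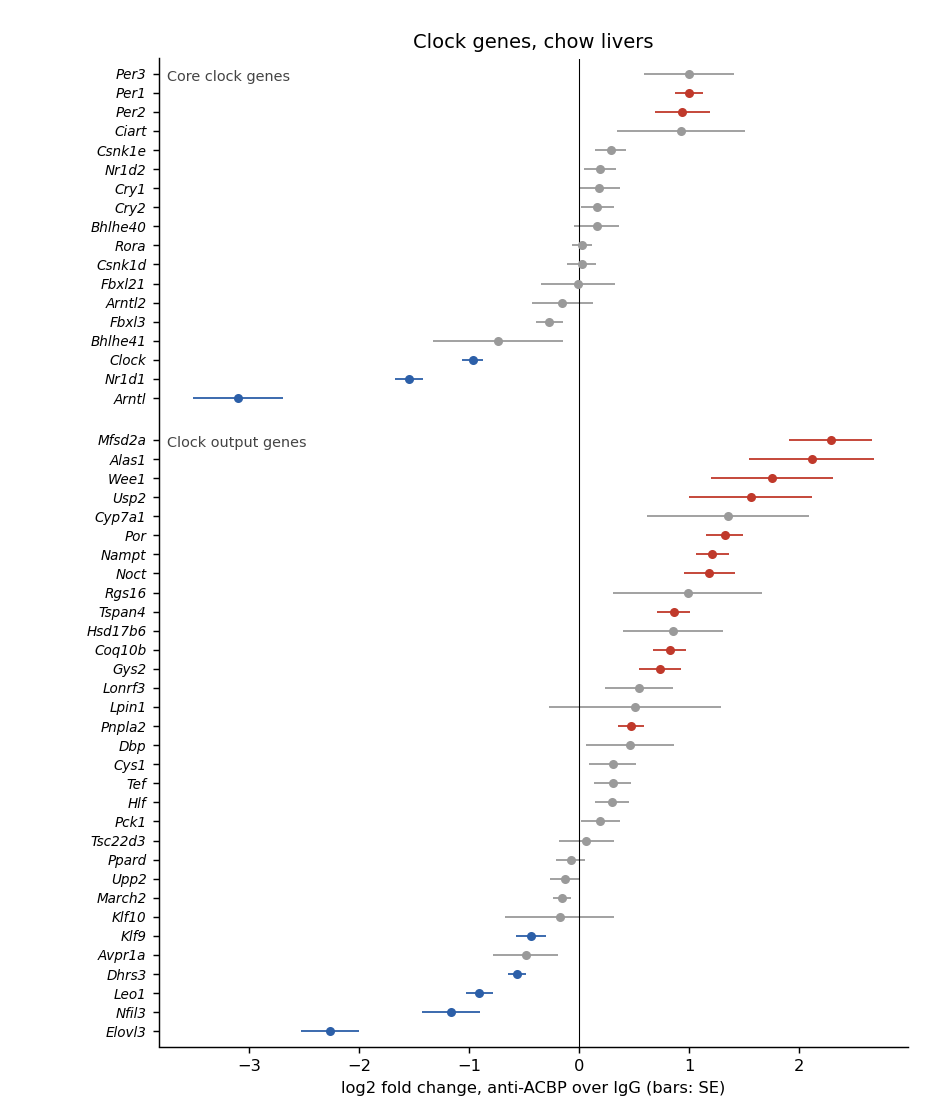
Log2 fold change of anti-ACBP over IgG (x axis) with its SE (bars) for 18 core clock genes (upper block) and 32 clock output genes (lower block) in chow livers. Red points were called higher, blue lower and grey neither; Arntl (-3.10) and Elovl3 (-2.26) are lowest in their blocks.

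Targets of PPARalpha, the receptor that senses fatty acids and induces their oxidation, were higher in 21 of 52 cases (40.4%) and lower in 1 (28 and 0 with equal column totals), with a median of 0.36. The acyl-CoA thioesterase Acot3 had 2506 under anti-ACBP and 167 under IgG (3.91 ± 0.75, adjusted p = 1.17e-05), and its paralogs Acot4, Acot2 and Acot1 rose by 1.54 (SE 0.35), 1.63 (SE 0.33) and 1.81 (SE 0.49); these genes are similar enough to share reads. Cyp4a10, which hydroxylates fatty acids, had 8365 under anti-ACBP and 2875 under IgG (1.54 ± 0.40, adjusted p = 0.00257). Ehhadh, the peroxisomal bifunctional enzyme, had 10056 under anti-ACBP and 6332 under IgG (0.67 ± 0.18, adjusted p = 0.00392) and Mgll, monoacylglycerol lipase, 7459.8 under anti-ACBP and 4829.6 under IgG (0.63 ± 0.15, adjusted p = 0.000567). Retsat and Vnn1 rose by 0.71 (SE 0.16) and 0.75 (SE 0.23). Other textbook targets did not pass, with Plin2 at -0.02 ± 0.13, Pdk4 at -0.59 ± 0.31, Angptl4 at -0.18 ± 0.23 and Fgf21 at 1.32 ± 0.89. The receptor gene Ppara stood at 0.04 ± 0.14.

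Mitochondrial beta-oxidation and ketogenesis genes were higher in 13 of 30 cases (43.3%) and lower in 0 (22 and 0 with equal column totals), and the called changes were small apart from Acot2. Cpt1a, the entry step for fatty acids, had 11444 under anti-ACBP and 9002 under IgG (0.35 ± 0.11, adjusted p = 0.0259). The trifunctional protein subunits Hadha and Hadhb rose by 0.36 (SE 0.10) and 0.38 (SE 0.078), Decr1 by 0.40 (SE 0.093) and Acadm by 0.28 (SE 0.075). Peroxisomal genes went both ways, with 9 higher and 5 lower of 46, and 20 and 4 with equal column totals. The acyl-CoA transporter Abcd2, also on the PPARalpha list, had 564 under anti-ACBP and 139 under IgG (2.02 ± 0.29, adjusted p = 1.39e-09), while the oxidase Acox2 and the carnitine transferase Crot had -0.56 ± 0.11 and -0.53 ± 0.11. Of ACBP and other proteins that bind acyl-CoA or fatty acids 3 of 8 were higher and 0 lower, namely Eci2 (0.51 ± 0.15), Fabp1 (0.31 ± 0.094) and Acbd5 (0.21 ± 0.076).

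In lipogenesis, which makes fatty acids and triglycerides, 5 of 30 were higher and 2 lower (8 and 2 with equal column totals), with the elongase Elovl6 at 0.86 ± 0.17, the desaturases Scd1 at 0.55 ± 0.13 and Fads2 at 0.49 ± 0.13 and pyruvate kinase Pklr at 0.67 ± 0.14. Fasn, fatty acid synthase, at -0.07 ± 0.23, Acly at -0.07 ± 0.23 and Srebf1 at 0.57 ± 0.48 did not pass. Cholesterol synthesis and uptake genes were lower in 9 of 35 cases and higher in 1. With equal column totals 5 were lower and 4 higher. Insig2, which holds the sterol sensor in the endoplasmic reticulum, had 1964 under anti-ACBP and 4506 under IgG (-1.2 ± 0.17, adjusted p = 1.32e-09). Sqle, squalene epoxidase, had 942 under anti-ACBP and 1802 under IgG (-0.94 ± 0.23, adjusted p = 0.00117), Hmgcs1 was at -0.88 ± 0.22 and Dhcr7 at -0.86 ± 0.24. Among 21 apolipoprotein and lipoprotein genes 2 rose and 2 fell (6 and 2 with equal column totals), with Apoa5 at 0.48 ± 0.12 and the transfer protein Pltp at 0.68 ± 0.18, Apof at -0.53 ± 0.079 and Apon at -0.70 ± 0.10.

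Lipid droplet and lipolysis genes were higher in 5 of 20 cases and lower in 2 (6 and 0 with equal column totals), with endothelial lipase Lipg at 1.39 ± 0.39 and the triglyceride lipase Pnpla2 at 0.47 ± 0.12. Bile acid genes were higher in 6 of 27 and lower in 4. Hsd3b7 and Cyp7b1, enzymes of the sterol ring and of the alternative route, had -1.03 ± 0.15 and -1.13 ± 0.37, and Cyp2c70, which makes mouse muricholic acids, had 8077 under anti-ACBP and 16207 under IgG (-1.0 ± 0.20, adjusted p = 2.98e-05). The receptor FXR, Nr1h4, rose by 0.39 (SE 0.097), the export pump Abcb11 fell by 0.43 (SE 0.11) and the importer Slco1a4 had 1860.3 under anti-ACBP and 811 under IgG (1.2 ± 0.25, adjusted p = 9.19e-05). Nr0b2, a textbook FXR target, stood at -1.17 ± 0.63 and did not pass.

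Detoxification genes were higher in several families. Of 10 xenobiotic receptors and cofactors 5 were higher and 0 lower. The receptor CAR, Nr1i3, had 21646 under anti-ACBP and 9915 under IgG (1.13 ± 0.19, adjusted p = 7.78e-07), and PXR, Nr1i2, 4182 under anti-ACBP and 3389 under IgG (0.30 ± 0.098, adjusted p = 0.0232). Por, which passes electrons to all microsomal cytochromes P450, had 21854 under anti-ACBP and 8740.0 under IgG (1.32 ± 0.17, adjusted p = 6.17e-13), and Alas1, the first enzyme of haem synthesis, 27714 under anti-ACBP and 6407 under IgG (2.11 ± 0.57, adjusted p = 0.00362). Of 7 members of the Cyp1, Cyp2a and Cyp2b families 3 were higher and 1, Cyp2a12, lower (3 and 0 with equal column totals). The coumarin hydroxylase Cyp2a5 had 44219 under anti-ACBP and 15494 under IgG (1.51 ± 0.20, adjusted p = 7.12e-12). Cyp2b10 and Cyp3a11, textbook targets of CAR and PXR, stood at 0.42 ± 0.55 and 0.41 ± 0.18 and did not pass, and 0 of 4 Cyp3a members did (1 higher with equal column totals).

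All 5 flavin monooxygenases, which oxidize nitrogen and sulfur in drugs and nutrients, were higher, with a median of 0.74. Fmo2 had 909.7 under anti-ACBP and 254 under IgG (1.84 ± 0.22, adjusted p = 9.38e-14) and Fmo1 had 8012 under anti-ACBP and 4803 under IgG (0.74 ± 0.11, adjusted p = 1.72e-09). Glutathione transferases and NRF2 targets were higher in 13 of 47 cases (27.7%) and lower in 3. The carboxylesterase Ces1d had 39369.9 under anti-ACBP and 17441 under IgG (1.17 ± 0.15, adjusted p = 1.09e-12), the carbonyl reductase Cbr1 4747 under anti-ACBP and 2258 under IgG (1.07 ± 0.19, adjusted p = 2.00e-06) and Nqo1 248 under anti-ACBP and 138 under IgG (0.84 ± 0.17, adjusted p = 4.14e-05). The NRF2 gene Nfe2l2 at 0.08 ± 0.13 and its targets Srxn1 at 0.24 ± 0.17 and Hmox1 at -0.25 ± 0.25 did not pass, and aldehyde oxidase Aox3 fell by 0.76 (SE 0.15). Conjugating enzymes were higher in 7 of 27 and lower in 2 (15 and 2 with equal column totals), with Ugt1a5 at 0.71 ± 0.10, Ugt1a1 at 0.46 ± 0.094 and the sulfotransferase Sult5a1 at -1.82 ± 0.33. Abcb1a, a drug efflux pump, had 247 under anti-ACBP and 76.5 under IgG (1.69 ± 0.28, adjusted p = 1.42e-07).

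Genes of glycogen and glucose metabolism were higher in 11 of 34 cases (32.4%) and lower in 0 (18 and 0 with equal column totals), with a median of 0.20. Gys2, glycogen synthase, had 11697 under anti-ACBP and 7028 under IgG (0.73 ± 0.19, adjusted p = 0.00288), the branching enzyme Gbe1 4417 under anti-ACBP and 2889 under IgG (0.61 ± 0.089, adjusted p = 1.39e-09) and Ugp2, which makes UDP-glucose, 0.57 ± 0.14. The phosphorylase Pygl stood at -0.22 ± 0.10. Fbp1 rose by 0.31 (SE 0.069), while the gluconeogenic Pck1 at 0.19 ± 0.18 and G6pc at -0.11 ± 0.24 did not pass. Of 36 tested genes of the fasting and glucocorticoid response 4 were higher and 3 lower. Sgk1, a kinase induced by glucocorticoids, had 728 under anti-ACBP and 352 under IgG (1.05 ± 0.17, adjusted p = 3.78e-08) and Fkbp5, a chaperone of their receptor, 2951 under anti-ACBP and 1849 under IgG (0.67 ± 0.21, adjusted p = 0.0177), while Tsc22d3 stood at 0.06 ± 0.25 and Igfbp1 at -0.16 ± 0.47.

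Amino acid catabolism was lower in 13 of 39 genes (33.3%) and higher in 0. With equal column totals it was lower in 8 and higher in 2. Gldc, the glycine decarboxylase of mitochondria, had the smallest adjusted p of all members, with 2482 under anti-ACBP and 5251 under IgG (-1.08 ± 0.067, adjusted p = 5.64e-54). Its partner in glycine cleavage, Amt, had 921 under anti-ACBP and 1446 under IgG (-0.65 ± 0.12, adjusted p = 1.78e-06). Hal, which opens histidine breakdown, had 7353 under anti-ACBP and 14148 under IgG (-0.94 ± 0.16, adjusted p = 5.15e-07), and Agxt, which clears glyoxylate, 5057 under anti-ACBP and 8869 under IgG (-0.81 ± 0.17, adjusted p = 0.00014). The urea cycle enzymes Cps1 at -0.16 ± 0.086, Ass1 at -0.29 ± 0.12 and Arg1 at -0.12 ± 0.11 did not pass.

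Methionine, choline and one-carbon genes were lower in 8 of 29 cases and higher in 3, and lower in 5 and higher in 7 with equal column totals, so that the list's direction turned with the scaling. Bhmt, which remethylates homocysteine with betaine, had 20881 under anti-ACBP and 77954 under IgG (-1.90 ± 0.46, adjusted p = 0.000901), and choline kinase Chka 516 under anti-ACBP and 1400.3 under IgG (-1.44 ± 0.25, adjusted p = 1.13e-06). Cbs, which sends homocysteine towards cysteine, had -0.67 ± 0.12 and Nnmt, which methylates nicotinamide, -0.92 ± 0.24. Mat1a, which makes S-adenosylmethionine, had 79757 under anti-ACBP and 59906 under IgG (0.41 ± 0.076, adjusted p = 4.22e-06). Mthfd1l, the mitochondrial formyl-tetrahydrofolate synthetase, was on no list and had 160.3 under anti-ACBP and 29.1 under IgG (2.46 ± 0.47, adjusted p = 1.25e-05).

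The series title names autophagy, the breakdown of cell contents in lysosomes. Of 49 core autophagy genes 2 were higher and 7 lower (14.3%), and 8 were higher and 1 lower with equal column totals, so that the direction of this list turned with the scaling. Bnip3, a receptor for mitochondria, had 9052 under anti-ACBP and 5344 under IgG (0.76 ± 0.093, adjusted p = 1.30e-13), and Atg16l2 581 under anti-ACBP and 1003 under IgG (-0.79 ± 0.16, adjusted p = 2.93e-05). The cargo receptor Sqstm1, at -0.28 ± 0.074, passed with the authors' size factors and not with equal totals. Of the initiation complex Ulk2 at -0.28 ± 0.096 and Atg101 at -0.37 ± 0.12 were lower, and neither passed with equal totals. Members that did not pass included Ulk1 at -0.21 ± 0.093, Becn1 at 0.12 ± 0.11, Atg5 at -0.10 ± 0.085, Atg7 at -0.35 ± 0.14 and Map1lc3b at -0.03 ± 0.063. Tfeb, a regulator of lysosome genes, stood at 0.44 ± 0.19. These are mRNA levels, and degradation was not measured. Lysosome genes were lower in 2 of 47 cases and higher in 0, against 1 lower and 10 higher with equal totals. The cathepsin Ctsl was among the lower (-0.43 ± 0.10, adjusted p = 0.000901). Of 31 proteasome genes 3 were lower and 0 higher, and with equal totals 0 were lower and 1 higher.

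Ribosomes make protein and the respiratory chain of mitochondria supplies energy. Of 43 cytosolic ribosomal protein genes 0 passed in either direction, with a median of 0.03, and with equal column totals 19 were higher. Of 41 nuclear respiratory chain genes 1, Cyc1, rose (0.18 ± 0.054), and 14 were higher with equal totals. Among 13 mitochondrially encoded genes 5 were lower and 0 higher (3 lower with equal totals), with mt-Co1, a subunit of cytochrome oxidase, at 746413 under anti-ACBP and 943351 under IgG (-0.34 ± 0.079, adjusted p = 0.000558).

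Cell cycle genes were higher in 6 of 30 cases and lower in 2 (9 and 1 with equal column totals), with Ccnd1, a cyclin of the first growth phase, at 1187 under anti-ACBP and 524 under IgG (1.18 ± 0.24, adjusted p = 6.51e-05) and Ccne1 at 1.31 ± 0.44. The proliferation marker Mki67 stood at -0.72 ± 0.32 and Top2a at -0.58 ± 0.42, neither past the threshold. The cell cycle inhibitor Cdkn1a, a p53 target, had 54.4 under anti-ACBP and 182 under IgG (-1.74 ± 0.46, adjusted p = 0.00316), and Bbc3, which promotes apoptosis, 219 under anti-ACBP and 451 under IgG (-1.04 ± 0.19, adjusted p = 4.68e-06). Of 21 p53 targets 4 were lower and 0 higher (2 lower and 1 higher with equal column totals). Of 20 tested immediate early genes 4 were higher and 0 lower, with Klf4 at 1.14 ± 0.32 and Klf2 at 0.97 ± 0.28. The other 4 members of that list were left untested because their adjusted p was read as missing.

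Matrix genes were lower in 8 of 40 cases (20%) and higher in 3, against 6 and 6 with equal column totals. The fibrillar collagens Col1a1 and Col3a1 had 102 under anti-ACBP and 227 under IgG (-1.15 ± 0.22, adjusted p = 1.12e-05) and 425 under anti-ACBP and 777 under IgG (-0.87 ± 0.15, adjusted p = 1.20e-06), and Col1a2 stood at -0.52 ± 0.20. Elastin, Eln, and Col6a3 had -1.06 ± 0.31 and -0.85 ± 0.22, and the protease inhibitor Timp3 rose by 0.58 (SE 0.17). Stellate cell markers were higher in 3 of 14 cases and lower in 1, with Hand2 at 0.97 ± 0.20, Pdgfra at 0.77 ± 0.19 and Acta2, smooth muscle actin, at 41.6 under anti-ACBP and 125 under IgG (-1.59 ± 0.53, adjusted p = 0.0293). Their summed level was 6920.2 normalized counts with anti-ACBP and 5813 with IgG.

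Markers of immune cells gave few calls at these levels. Of 20 macrophage markers 1, Mpeg1, was lower (-0.79 ± 0.21, adjusted p = 0.00395), with a summed level of 11396 with anti-ACBP and 13922 with IgG. The Kupffer cell markers Clec4f and Timd4 stood at -0.20 ± 0.23 and -0.36 ± 0.25. Neutrophil markers passed in 0 of 5 cases, with S100a8 at 52.8 under anti-ACBP and 16.8 under IgG (1.65 ± 0.77, adjusted p = 0.158); 7 of the 12 lay under the minimum. T, NK and B cell markers passed in 0 of 13. Sinusoidal endothelial markers were higher in 1 of 19 (Fcgr2b, 0.50 ± 0.18; 4 with equal column totals) and cholangiocyte markers lower in 1 of 10 (Sox9, -0.98 ± 0.32). Hepatocyte transcription factors passed for 1 of 21, Nr1h4 (3 higher with equal column totals), with Hnf4a at -0.16 ± 0.11 and Cebpa at 0.05 ± 0.12.

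Hepatocytes differ along the lobule. Of 21 pericentral genes, expressed around the central vein, 2 were higher and 3 lower, against 4 and 3 with equal column totals, so that the direction turned with the scaling. The genes included Cyp2e1 at 0.40 ± 0.072, Notum at 0.49 ± 0.14 and the ammonium transporter Rhbg at -1.28 ± 0.28. Glul, glutamine synthetase, stood at 0.18 ± 0.12 and Axin2 at 0.18 ± 0.28. Of 20 periportal genes 2 were higher and 6 lower, against 4 and 4 with equal column totals. The cadherin Cdh1 had 941 under anti-ACBP and 1756 under IgG (-0.90 ± 0.17, adjusted p = 5.92e-06) and the aldehyde dehydrogenase Aldh1b1 935 under anti-ACBP and 1749 under IgG (-0.90 ± 0.22, adjusted p = 0.000901).

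Several of the best separated genes stood on no list. Lower were Eps8l2, an actin regulator, with 1681 under anti-ACBP and 3657 under IgG (-1.12 ± 0.081, adjusted p = 8.02e-40), and Map3k13, a kinase of stress signalling, with 194 under anti-ACBP and 732 under IgG (-1.92 ± 0.21, adjusted p = 1.93e-16). Atp11a, a phospholipid flippase, had 169.9 under anti-ACBP and 694 under IgG (-2.03 ± 0.24, adjusted p = 3.03e-14), Psen2, a subunit of gamma-secretase, 2532 under anti-ACBP and 6369 under IgG (-1.33 ± 0.16, adjusted p = 2.53e-14) and Tymp, thymidine phosphorylase, 2335 under anti-ACBP and 4925 under IgG (-1.08 ± 0.12, adjusted p = 1.41e-15). The magnesium transporter Slc41a2 had -1.35 ± 0.17, the ubiquitin ligase Rnf125 -1.12 ± 0.14 and the copper chaperone Sco2 -0.90 ± 0.11. Higher were Tmtc2, a mannosyltransferase, with 427 under anti-ACBP and 157 under IgG (1.45 ± 0.16, adjusted p = 4.83e-17), and Tsku, a secreted proteoglycan of the liver, with 11232 under anti-ACBP and 4529 under IgG (1.31 ± 0.18, adjusted p = 4.01e-11).

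More genes outside the lists rose by similar amounts. The ubiquitin ligase Rnf145 had 1553 under anti-ACBP and 620.3 under IgG (1.32 ± 0.21, adjusted p = 3.24e-08), the lactate and pyruvate carrier Slc16a7 2350.0 under anti-ACBP and 1195 under IgG (0.98 ± 0.15, adjusted p = 3.42e-08) and the nucleotide receptor P2ry1 376 under anti-ACBP and 196 under IgG (0.94 ± 0.13, adjusted p = 1.59e-10). Homer2, a scaffold protein, rose by 0.72 (SE 0.094), Slc35d1, which imports UDP-sugars, by 0.58 (SE 0.091) and Rad51b, a DNA repair protein, by 2.29 (SE 0.36). The protein-coding gene A930033H14Rik, of which no function is given here, had 447 under anti-ACBP and 120.1 under IgG (1.90 ± 0.19, adjusted p = 2.26e-20). Among long non-coding RNAs Gm45301 had 4.77 under anti-ACBP and 49.0 under IgG (-3.35 ± 0.73, adjusted p = 0.000178).

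Whether the antibody acted in the same way on the MCD diet was asked of each gene, as the chow fold change minus the MCD fold change over the root of their summed squared SEs, read against the normal distribution with Benjamini-Hochberg adjustment. Each diet had its own IgG samples. Of 14579 members tested on both diets 3389 differed (23.2%), 1544 with a higher and 1845 with a lower fold change on chow. Of 1755 chow calls tested on MCD, 809 were called there too. That is 46.1% of the chow calls and 14.9% of the 5446 MCD calls among these genes. Both shares are to be read against all 14579 members, of which 5446 were called on MCD and 1755 on chow. Of the 809, 507 had the same direction and 302 the opposite one. Column totals ran the other way on MCD, where making them equal moves every fold change by -0.19. Equal totals on both diets thus raise every difference of chow minus MCD. The counts of differences by direction and by list were not computed with equal totals.

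Male-biased and complement genes had lower fold changes on chow than on MCD. Among major urinary proteins 18 of 20 differed, all with a lower fold change on chow, and the list's median was -1.41 on chow and 1.81 on MCD. Mup16 had 13477 normalized counts with anti-ACBP and 36588 with IgG on chow, and 7490.2 with anti-ACBP and 342 with IgG on MCD. Its difference was -5.89 ± 0.57 (adjusted p = 7.45e-22). Complement and coagulation genes had a lower fold change on chow in 36 of 44 cases. For C8b the log2 fold change was -0.74 ± 0.12 on chow and 1.66 ± 0.16 on MCD, a difference of -2.40 ± 0.20 (adjusted p = 4.23e-30). The endoplasmic reticulum list differed in 21 genes with lower and 4 with higher fold changes on chow, with medians of -0.28 and 0.24. The transporter Slc3a1, on no list, had -0.83 ± 0.098 on chow and 1.25 ± 0.16 on MCD, a difference of -2.08 ± 0.19 (adjusted p = 2.01e-24).

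Of 26 female-biased members 18 had a higher and 2 a lower fold change on chow, with medians of 0.54 on chow and -0.82 on MCD. Outside that list, the cytochrome P450 gene Cyp2a22 differed by 4.03 ± 0.55 (adjusted p = 3.16e-11). Nqo1 had 0.84 ± 0.17 on chow and -1.39 ± 0.19 on MCD, a difference of 2.23 ± 0.26 (adjusted p = 8.02e-16). For Atf3 the difference was 5.14 ± 0.63 (adjusted p = 9.10e-14) and for Ccnd1 2.40 ± 0.33 (adjusted p = 2.56e-11). Of 19 core clock genes 2 differed. Arntl had -3.10 ± 0.41 on chow and -1.79 ± 0.49 on MCD, with a difference of -1.31 ± 0.64 (adjusted p = 0.125).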

How the data were processed

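Liver mRNA was sequenced from strand-specific libraries per the labels' protocols, and whether counting used strand is not given in the sources used here. HISAT2 2.2.1, HTSeq 0.13.5, DESeq2 and the build mm39 are named in the submitters' processing notes. The authors deposited 1 table per diet, with group means of normalized counts (a signal: read counts over size factors), log2 fold changes that end at -5 and 5 with their SE, and Wald p-values with Benjamini-Hochberg adjustment, rounded to 6 decimals, per the file headers. Total reads per sample are unknown, and values per library were not used here. The lowest means of genes seen in 1 group only recurred often at a few values, read as single-read steps. These gave 4 libraries per chow group and 5 per MCD group.

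Genes with a mean of at least 13 were kept. Deposited adjusted p-values of 0.001 or more were used, and smaller ones were recomputed from fold change over SE, with the same adjustment over the whole table. Those at the upper end of their range were read as missing. The 62 gene lists and the members were chosen with earlier results of these data known. Genes named by rule were Dbi, the 25 extremes in each direction by fold change over SE and by fold change, up to 6 called genes per list and direction, and the 15 largest diet differences in each direction. Further list members, called and not called, were named outside this rule. Some genes are not reported here. The computations were tested on simulated data. Alternatives were other scalings, thresholds and minimums and Student's t with 6 degrees of freedom. Promoters are from RefSeq (GRCm38.p6, another build than mm39), matched by symbol. Python 3.11.15 was used with numpy 2.4.6, pandas 2.3.3, scipy 1.17.1, biopython 1.88 and matplotlib 3.10.9.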

Additional observations from a re-analysis of the deposited data

Results flagged for a closer look

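The fold change of anti-ACBP over IgG differed between chow and MCD livers for 3389 of 14579 members, by a test of the difference itself (z from both deposited SEs, Benjamini-Hochberg). Among genes called on chow, the best separated differences in each direction are given as chow minus MCD on the log2 scale. Secreted protein genes with lower fold changes on chow than on MCD were Mup3 (-4.05), Mup16 (-5.89), Serpina1e (-5.33), Serping1 (-1.09), C8b (-2.40), C8a (-1.95) and C9 (-2.20). Enzymes and transporters among them were Ces1f (-1.59), Ces3a (-1.86), Slc3a1 (-2.08), Slc22a28 (-4.00) and the lipase factor Lmf1 (-1.43). The remaining ones were Cyp2d38-ps (-1.89), BC024386 (-1.64) and 5530400K19Rik (-1.62). Detoxification genes with higher fold changes on chow than on MCD were Cyp2a22 (4.03), Gsta2 (2.11), Nqo1 (2.23), Mgst3 (1.44) and Abcb1a (2.47). Genes of growth, stress and cell structure were Ccnd1 (2.40), Atf3 (5.14), Sgk1 (1.74), Krt8 (1.38), Anxa5 (1.02) and Pdgfra (1.88). Lpl (2.05), Pkm (1.40) and Lilr4b (3.79) completed the set. Krt8, Anxa5, Lpl and Pkm had negative fold changes on both diets, and Ces1f had positive ones on both. The diets came from separate tables with their own size factors, and the part of scaling in single differences was not tested.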

How the results depend on the processing

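Of the 1760 calls, equal column totals gave 3137 (2605 higher, 532 lower) and totals without the 20 most abundant genes 1328 higher calls. An adjusted p under 0.01 left 1007 (442 higher, 565 lower) and a log2 fold change of at least 0.5 left 926 (388 higher, 538 lower). Student's t with 6 degrees of freedom left 0 calls in total, 0 higher and 0 lower; at an unadjusted p under 0.05 it gave 2237 genes, and the Wald test 3454. It reads each SE as if estimated from that gene's own libraries alone. The diet difference counted 3389 genes, against 5431 with equal totals, 2142 at an adjusted p under 0.01 and 2239 with Student's t. A minimum of 100, no minimum and adjustment over the members alone kept the counts within 1.5 times. The 335 genes named by rule were all called except Dbi, and none reversed. Of these, 48 lost their call with equal totals, 30 with trimmed totals and all 334 called ones with Student's t. Other genes named in the text were not part of these counts. No paired analysis was possible because the tables hold group means without replicate numbers. For the same reason leaving out single replicates was not run, nor were counts per list at other fold estimates.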

Other observations

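Haem and iron genes, on lists not described above, showed mixed directions in the authors' deposited table. Of 19 genes of haem synthesis and degradation 3 were higher and 2 lower (5 and 0 with equal column totals). Of 26 iron handling genes 1 was higher and 6 lower, and with equal column totals 9 were higher and 3 lower, so that the direction of this list turned with the scaling. Among 30 genes of the Cyp2c, Cyp2d, Cyp2e, Cyp2f and Cyp2j families 4 were higher and 5 lower, against 6 and 4 with equal column totals, so that this direction turned too. Of 5 adipocyte markers 1 was higher and 3 lower, with a summed level of 62338.5 normalized counts with anti-ACBP and 96703.0 with IgG. That sum does not measure adipocytes alone, since it includes Car3, which is also on the pericentral hepatocyte list. Adrb3 had 264 under anti-ACBP and 492 under IgG, and the markers Adipoq, Plin1, Lep and Retn lay under the minimum. Of 8 red blood cell markers 1 was lower and 0 higher, and 0 passed with equal column totals.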
